A study of Mus musculus with 6 samples.

Results

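The genes described here encode the machinery that copies DNA in S phase. They are 54 genes, of 54146 in the deposited count tables, listed by symbol for their role in replication and matched to the gene identifiers of the tables through the annotation. All 54 were found, and all 54 had enough reads to be tested. They fall into 7 classes: 9 genes of origin licensing, 14 of the replicative helicase and its activation, 9 of the polymerases, 6 of the clamp and its loader, 5 of single-strand binding and Okazaki fragment maturation, 4 of nucleotide supply and 7 of chromatin assembly and S phase control.

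The levels come from RNA sequencing of cortical cells of mouse embryos, sorted by green fluorescence at E15.5 (embryonic day), 24 hours after plasmids had been brought in at E14.5 by in utero electroporation. In the Mir group (3 libraries) a U6 promoter drove a hairpin that encodes the precursor of miR-3607-5p, and in the Scr group (3 libraries) the same promoter drove the scrambled hairpin of the vector kit. Cells of both groups also carried a plasmid with green fluorescent protein (GFP) under the CAG promoter, which marks cells that took up DNA and not a cell type, and the embryos of both were wild type. Each library pooled the cells of 2 embryos, and a p-value here reflects the spread between such pools. The strain is ICR by the labels' protocol but C57BL/6 by their sample characteristics. The strand of the hairpin after its loop, read from the oligonucleotide in the labels, is shown with its seed (bases 2 to 8, which pair with target messages) in capitals.
miR-3607-5p strand: gCATGTGAtgaagcaaatcag

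Replication starts at origins, which the origin recognition complex (ORC) marks in G1 and on which Cdc6 and Cdt1 load the ring-shaped Mcm2-7 helicase. In S phase the kinase Cdc7 with its partner Dbf4, together with Cdc45 and the GINS complex, turns the loaded ring into the active helicase, and polymerases, the sliding clamp PCNA, ligase and a supply of deoxynucleotides do the copying behind it. Many of these genes are transcribed at the G1/S boundary by E2F factors, which the retinoblastoma proteins hold in check, and in the embryonic cortex their messages are typical of cycling progenitors at the ventricle rather than of neurons.

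Libraries held 12724511 to 16684038 counts in genes, and a member had between 78 and 9813 counts in a library. CPM are counts in genes scaled to a common library size, and values per library are given in the order of replicates 1, 2 and 3. Markers of several cortical cell types were present. The 11 radial glia markers summed to 1833, 1395 and 2069 CPM in Scr and 1786, 2183 and 2584 CPM in Mir, the 8 intermediate progenitor markers to 3349, 2123 and 2833 CPM in Scr and 4062, 4368 and 2981 CPM in Mir and the 12 cortical neuron markers to 5818, 7583 and 6195 CPM in Scr and 5328, 4798 and 5406 CPM in Mir. In bulk samples, fewer cells of a type and less RNA per cell cannot be told apart. Other cell types differed between libraries. The 10 inhibitory neuron markers summed to 254, 1032 and 363 CPM in Scr and 135, 113 and 326 CPM in Mir, the 10 endothelial markers to 99.1, 234 and 16.5 CPM in Scr and 4.89, 4.65 and 43.6 CPM in Mir, the 10 microglia markers to 22.5, 66.7 and 82.8 CPM in Scr and 10.1, 13.0 and 55.5 CPM in Mir and the 8 red blood cell genes to 248, 863 and 568 CPM in Scr and 53.1, 1.59 and 578 CPM in Mir. The defining endothelial genes Pecam1, Cdh5, Cldn5, Tie1 and Emcn were at 0 counts in Mir replicates 1 and 2. Scr replicate 2 was the library with the highest sums for cortical neuron, inhibitory neuron, endothelial and red blood cell genes and the lowest for radial glia and intermediate progenitor markers. Their part in the results below was not tested.

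Most replication genes had a slightly higher mean in Mir than in Scr, and no single gene of the list passed the test over all genes. Of 54 members, 49 (90.7%) had a higher mean and 5 a lower one, while 48.8% of all 16897 genes tested were higher. The median log2 fold change of the members (Mir over Scr) was 0.18, against -0.01 for all genes tested, and members ranged from -0.24 to 0.57. EdgeR called 0 members at an adjusted p under 0.05 in either direction, against 0% of all genes called higher and 0.00592% called lower, and the smallest adjusted p of a member was 0.178. At an unadjusted p under 0.05, 15 members (27.8%) were higher and 0 lower, where 6.57% of all genes were higher and 7.93% lower. DESeq2 called 4 members higher (Rrm1, Pold1, Mcm2 and Fen1) and 0 lower, with 1.86% of all genes called higher and 2.51% lower, and limma-voom called 0.

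The 3 Mir libraries lay all above the 3 Scr libraries for 16 members (29.6%), where 9.77% of all genes did so, and all below for 1 member, where 10.3% of all genes did so. The other 37 members overlapped between groups. The library that stood apart was Scr replicate 2, the lowest of the 6 libraries for 42 members (77.8%), where it was lowest for 21.7% of all genes. Mir replicate 3 was the highest for 26 members (48.1%, against 14.7% of all genes), Mir replicate 1 for 15 and Mir replicate 2 for 0. Levels of all 54 members summed to 5954, 4987 and 6502 CPM in Scr and 7027, 6261 and 7272 CPM in Mir, with Mir replicate 2 lower than Scr replicate 3.

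**Figure D1:**
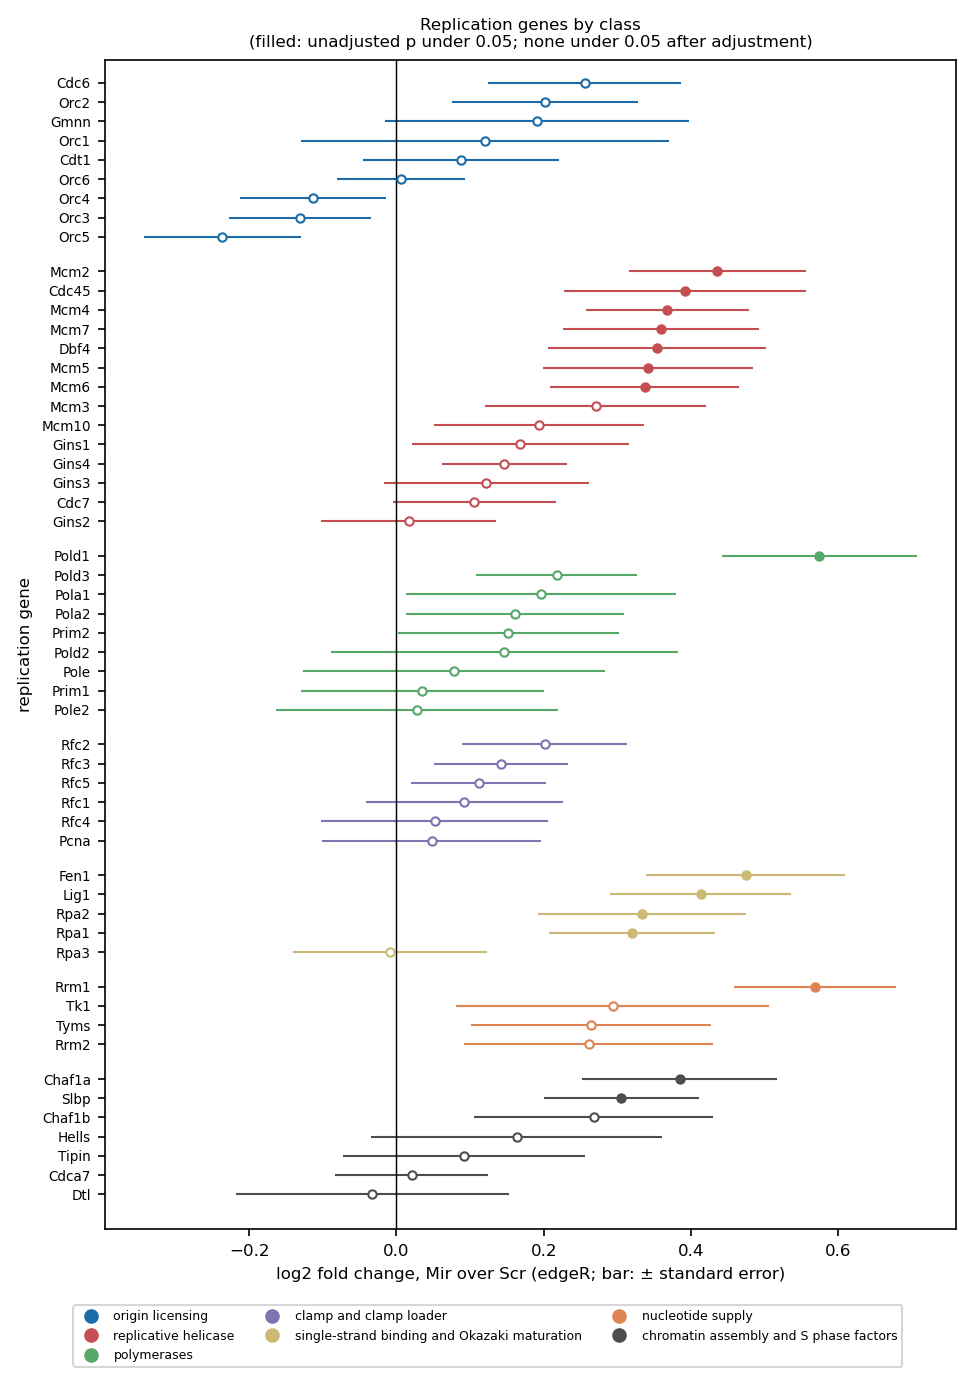
The log2 fold change of each of the 54 replication genes (x axis, Mir over Scr, bars ± standard error) is drawn by class, with filled points for the 15 genes at an unadjusted p under 0.05. The helicase genes all sit to the right of 0, while Orc3, Orc4 and Orc5 sit to the left.

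Promoters of the members were read from RefSeq on GRCm38.p6, from 250 bases before to 50 after a RefSeq start, for 45 of the 54 members (54 windows, since some genes have several starts). They were searched on both strands for the E2F words TTTCCCGC, TTTCGCGC, TTTGCCGC and TTTGGCGC. The words were in 18 of the 54 windows (33.3%), against 744 of 32851 windows of all promoters (2.26%) and 535 of 14020 windows of the genes tested (3.82%). Examples are shown for the 6 members with the smallest p that hold a word, each with the match nearest to the start and with the word in capitals, because these letters recur in most classes of the machinery.
Pold1, chr7:44548766-44548786, minus strand: gtatcttgtgGCGGGAAAagc
Lig1, chr7:13278842-13278869, plus strand: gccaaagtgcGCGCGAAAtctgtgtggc
Mcm7, chr5:138171850-138171877, minus strand: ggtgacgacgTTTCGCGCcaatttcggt
Mcm6, chr1:128359735-128359762, minus strand: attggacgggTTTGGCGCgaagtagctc
Mcm5, chr8:75109350-75109377, plus strand: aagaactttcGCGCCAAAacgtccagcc
Pold3, chr7:100121468-100121495, minus strand: agcgaagctgTTTCCCGCcggcgggagc
With the RefSeq start of its window as 0, the word starts at 39 in Pold1, 26 in Lig1, 16 in Mcm7, -47 in Mcm6, -149 in Mcm5 and 17 in Pold3. This start need not be the end of the gene span printed below. The Lig1 window shown, chr7:13278576-13278875, is 1 of 3 for that gene and lies inside its span. In Mcm5 a second word, TTTCGCGC, overlaps the one shown.

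Origin licensing was the class with the smallest shift. Of its 9 genes, 6 had higher and 3 lower means, and the median log2 fold change was 0.09. At an unadjusted p under 0.05 there were 0 of them, where 6.57% of all genes were higher and 7.93% lower. The 6 ORC genes, whose products form the ring that marks origins, split evenly in their log2 fold changes: Orc2 (0.20 ± 0.13), Orc1 (0.12 ± 0.25) and Orc6 (0.01 ± 0.09) had higher means and Orc3 (-0.13 ± 0.10), Orc4 (-0.11 ± 0.10) and Orc5 (-0.24 ± 0.11) lower ones. On the opposite strand, Nif3l1 overlaps 29.8% of the exons of Orc2 and Gm12743 overlaps 10.8% of those of Orc1, so the counts of Orc2 and Orc1 are uncertain.
Orc5 (ENSMUSG00000029012, chr5:22486485-22550429, minus strand) was at 54.4, 62.3 and 59.4 CPM in the Scr libraries and 53.8, 45.3 and 50.5 CPM in the Mir libraries. Its Mir libraries all lay below its Scr libraries, the sole member of the 54 for which this was so. The log2 fold change of Orc5 was -0.24 ± 0.11, at an adjusted p of 0.360 by edgeR. Of the loading factors, Cdc6, the ATPase that brings the helicase to ORC, was at 39.9, 29.5 and 35.3 CPM in the Scr libraries and 42.4, 42.2 and 40.3 CPM in the Mir libraries. Its Mir libraries were all above its Scr libraries by a narrow margin, and the log2 fold change was 0.26 ± 0.13 at an adjusted p of 0.418 by edgeR. Cdt1, the other loading factor, had a log2 fold change of 0.09 ± 0.13 and its inhibitor geminin (Gmnn) of 0.19 ± 0.21, and both overlapped between groups.

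The replicative helicase, the largest class, had all its genes on the same side, as had the polymerases, the clamp and its loader, and nucleotide supply. All 14 genes had higher means in Mir (median log2 fold change 0.30), and 7 were higher at an unadjusted p under 0.05, against 6.57% of all genes. For 6 the Mir libraries lay all above the Scr libraries, against 9.77% of all genes. The 6 subunits of the Mcm2-7 ring, the motor that unwinds DNA, had log2 fold changes within a narrow range, from 0.27 to 0.44.
Mcm2 (ENSMUSG00000002870, chr6:88883474-88898780, minus strand) was at 237, 197 and 259 CPM in the Scr libraries and 336, 285 and 317 CPM in the Mir libraries, without overlap, a log2 fold change of 0.44 ± 0.12 with adjusted p-values of 0.224 by edgeR and 0.0384 by DESeq2. Mcm4 was at 149, 134 and 168 CPM in the Scr libraries and 203, 176 and 203 CPM in the Mir libraries, also without overlap, with a log2 fold change of 0.37 ± 0.11 and an adjusted p of 0.244 by edgeR. Mcm7 was at 289, 246 and 349.9 CPM in the Scr libraries and 407, 354 and 375 CPM in the Mir libraries, with a log2 fold change of 0.36 ± 0.13 and an adjusted p of 0.295 by edgeR. Other genes (Cops6 and Ap4m1 on the opposite strand, Mir25 and Mir93 within Mcm7) overlap 12.6% of the exons of Mcm7, and 23.3% of its 50-base words occur in other genes, so its counts are uncertain. Mcm5, Mcm6 and Mcm7 are the ring subunits whose E2F words are shown above. In Mcm2, Mcm4 and Mcm7 Scr replicate 2 was lowest and Scr replicate 3 was the control closest to the Mir libraries.
Mcm5 was at 133, 106 and 152 CPM in the Scr libraries and 156, 156 and 182 CPM in the Mir libraries, with a log2 fold change of 0.34 ± 0.14 and an adjusted p of 0.332 by edgeR. Mcm6 was at 274, 241 and 338 CPM in the Scr libraries and 375, 336 and 368 CPM in the Mir libraries, with a log2 fold change of 0.34 ± 0.13 and an adjusted p of 0.307 by edgeR. Mcm3, the subunit with the smallest change, was at 103, 80.9 and 121 CPM in the Scr libraries and 121, 114 and 133 CPM in the Mir libraries, with a log2 fold change of 0.27 ± 0.15 and an adjusted p of 0.451 by edgeR. The Mir libraries of Mcm5 stood just clear of Scr replicate 3, while those of Mcm6 and Mcm3 overlapped with it.

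The factors that turn the ring on had log2 fold changes from 0.02 (Gins2) to 0.39 (Cdc45). Dbf4, the regulatory subunit of the kinase that triggers origin firing, was at 79.2, 55.5 and 79.3 CPM in the Scr libraries and 87.6, 87.8 and 98.2 CPM in the Mir libraries. Its libraries did not overlap between groups, and the log2 fold change was 0.35 ± 0.15 at an adjusted p of 0.333 by edgeR. Its catalytic partner Cdc7 had a log2 fold change of 0.11 ± 0.11. Cdc45, which joins the ring to make it active, was at 68.6, 55.1 and 69.7 CPM in the Scr libraries and 84.7, 67.6 and 102 CPM in the Mir libraries. Mir replicate 2 lay below the controls of replicates 1 and 3, so the groups overlapped, and the log2 fold change was 0.39 ± 0.16 at an adjusted p of 0.334 by edgeR. Of the 4 GINS genes, the remaining part of the active helicase, Gins1 had a log2 fold change of 0.17 ± 0.15, Gins4 of 0.15 ± 0.08, Gins3 of 0.12 ± 0.14 and Gins2, 67.3% of whose exons overlap Gse1 on the opposite strand, of 0.02 ± 0.12. Mcm10, a factor needed for the ring to begin unwinding, had a log2 fold change of 0.19 ± 0.14.

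The polymerases had a smaller median log2 fold change, 0.15, and a single gene higher at an unadjusted p under 0.05 (against 6.57% of all genes). All 9 genes had higher means, and 8 of them overlapped between groups, as did 13512 of all 16897 genes tested. The exception was Pold1 (ENSMUSG00000038644, chr7:44532746-44548849, minus strand), the catalytic subunit of polymerase delta, which copies the lagging strand. Its promoter holds the E2F word shown above. It was at 42.5, 39.7 and 48.1 CPM in the Scr libraries and 68.7, 54.6 and 70.9 CPM in the Mir libraries, and each Mir library exceeded each Scr library. Its log2 fold change of 0.57 ± 0.13 was the largest of the 54, with adjusted p-values of 0.206 by edgeR and 0.0164 by DESeq2. The accessory subunits of the same enzyme had log2 fold changes of 0.15 ± 0.24 (Pold2) and 0.22 ± 0.11 (Pold3). For polymerase epsilon, which copies the leading strand, the log2 fold change was 0.08 ± 0.20 for the catalytic subunit Pole and 0.03 ± 0.19 for Pole2. For polymerase alpha and its primase, which lay down primers, log2 fold changes were 0.20 ± 0.18 for Pola1, 0.16 ± 0.15 for Pola2, 0.03 ± 0.16 for Prim1 and 0.15 ± 0.15 for Prim2.

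The clamp and its loader differed little between the groups. The 6 genes had a median log2 fold change of 0.10. Of them, 0 reached an unadjusted p under 0.05, where 6.57% of all genes were higher and 7.93% lower. All 6 overlapped between groups, as did 13512 of all 16897 genes tested. Rfc2, a subunit of the clamp loader, had the smallest p of the class and was at 138, 119 and 144 CPM in the Scr libraries and 152, 139.6 and 169 CPM in the Mir libraries. Its Mir values spanned Scr replicate 3, and its log2 fold change was 0.20 ± 0.11 at an adjusted p of 0.455 by edgeR. The other loader subunits had log2 fold changes of 0.14 ± 0.09 (Rfc3), 0.11 ± 0.09 (Rfc5), 0.09 ± 0.13 (Rfc1) and 0.05 ± 0.15 (Rfc4). Genes on the opposite strand overlap 15.1% of the exons of Rfc2 (Lat2), 12.7% of Rfc4 (Eif4a2) and 10.7% of Rfc5 (Wsb2). The counts of these loader genes are therefore uncertain. Pcna, the sliding clamp that tethers polymerases to DNA and serves widely as a mark of S phase, was at 123, 100.3 and 145 CPM in the Scr libraries and 131, 112 and 137 CPM in the Mir libraries. Scr replicate 3 was the highest library of the 6 and Scr replicate 2 the lowest. The log2 fold change was 0.05 ± 0.15 at an adjusted p of 0.915 by edgeR. The pseudogene Pcna-ps2 shares 19.1% of the 50-base words of Pcna and had a mean of 25.9 CPM in Scr against 26.0 in Mir.

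Genes of single-strand binding and Okazaki fragment maturation had the highest class median of the log2 fold change, 0.33. Of 5 genes, 4 were higher at an unadjusted p under 0.05, each without overlap between groups. Of all genes, 6.57% were higher at that p, and for 9.77% the Mir libraries lay all above the Scr libraries. Fen1 (ENSMUSG00000024742, chr19:10199132-10204169, minus strand), the nuclease that trims the flaps of Okazaki fragments, was at 163, 148 and 208 CPM in the Scr libraries and 256, 221 and 245 CPM in the Mir libraries. Mir replicate 2 was the Mir library closest to Scr replicate 3, and the log2 fold change was 0.47 ± 0.14, with adjusted p-values of 0.234 by edgeR and 0.0424 by DESeq2. Fen1 counts are uncertain, because 2 genes on the opposite strand, the noncoding Gm10143 and Tmem258, together overlap 84.2% of its exons and the library kit does not mark strand. Gm10143 had 2210, 2078 and 3631 counts in Scr and 4061, 3645 and 3669 in Mir. Fen1 had 2095, 2055 and 3453 counts in Scr and 4025, 3466 and 3612 in Mir, close to Gm10143 in each library. Whether both rows hold reads of the same transcript was not tested.
Lig1 (ENSMUSG00000056394, chr7:13277283-13311433, plus strand), the ligase that seals the fragments and a further gene with an E2F word shown above, was at 94.4, 87.1 and 108 CPM in the Scr libraries and 119.8, 119.5 and 147 CPM in the Mir libraries, with a log2 fold change of 0.41 ± 0.12 and an adjusted p of 0.244 by edgeR. The subunits of replication protein A, which coats single-stranded DNA, differed from each other in their means. Rpa1 was at 113, 105 and 131 CPM in the Scr libraries and 151, 131 and 154 CPM in the Mir libraries, a log2 fold change of 0.32 ± 0.11 at an adjusted p of 0.282 by edgeR. Rpa2 was at 92.6, 78.2 and 115 CPM in the Scr libraries and 128, 115 and 117 CPM in the Mir libraries, a log2 fold change of 0.33 ± 0.14 at an adjusted p of 0.340 by edgeR. For both, the Mir library nearest to the controls was within 1 CPM of Scr replicate 3, while the small subunit gene Rpa3 had a log2 fold change of -0.01 ± 0.13 and overlapped.

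All 4 nucleotide supply genes were higher on average (median log2 fold change 0.28). For 1 of them the Mir libraries lay all above the Scr libraries, against 9.77% of all genes. Rrm1 (ENSMUSG00000030978, chr7:102441695-102469771, plus strand) encodes the large subunit of ribonucleotide reductase, the enzyme that makes deoxynucleotides. It was at 284, 255 and 326 CPM in the Scr libraries and 456, 393 and 433 CPM in the Mir libraries, with the lowest Mir library well above the highest Scr library. The group means were 288 ± 35.5 CPM for Scr and 428 ± 31.9 CPM for Mir (SD, n = 3). The log2 fold change was 0.57 ± 0.11, and its adjusted p was the smallest of the 54 members by edgeR (0.178) and by DESeq2 (0.00112). Rrm2, the small subunit of the same enzyme and the one whose message is most tied to S phase, was at 517, 369 and 549 CPM in the Scr libraries and 562, 493 and 665 CPM in the Mir libraries. Scr replicate 3 lay above Mir replicate 2 and close to Mir replicate 1, and the log2 fold change was 0.26 ± 0.17 at an adjusted p of 0.514 by edgeR. Tyms, the thymidylate synthase, had a log2 fold change of 0.26 ± 0.16, and the value was 0.29 ± 0.21 for Tk1, the thymidine kinase of the salvage route.

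Among chromatin assembly and S phase factors, 6 of 7 were higher on average (median log2 fold change 0.16). At an unadjusted p under 0.05, 2 were higher (against 6.57% of all genes). Slbp, which binds the ends of replication-dependent histone messages, was at 190.3, 151 and 186 CPM in the Scr libraries and 221, 212 and 218 CPM in the Mir libraries. The 3 Mir libraries lay close together and above all controls, with a log2 fold change of 0.31 ± 0.11 and an adjusted p of 0.278 by edgeR. Chaf1a, the large subunit of the assembly factor that places histones behind the fork, was at 39.3, 35.8 and 44.6 CPM in the Scr libraries and 47.3, 49.7 and 59.3 CPM in the Mir libraries. Here too the groups did not overlap, with a log2 fold change of 0.38 ± 0.13 and an adjusted p of 0.276 by edgeR, but Ubxn6 on the opposite strand overlaps 52.5% of its exons and its counts are uncertain. For the rest the log2 fold change was 0.27 ± 0.16 for its partner Chaf1b, 0.09 ± 0.16 for the fork protector Tipin, 0.16 ± 0.20 for the remodeller Hells, 0.02 ± 0.10 for its partner Cdca7, and -0.03 ± 0.19 for Dtl, which targets Cdt1 for degradation.

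**Figure D2:**
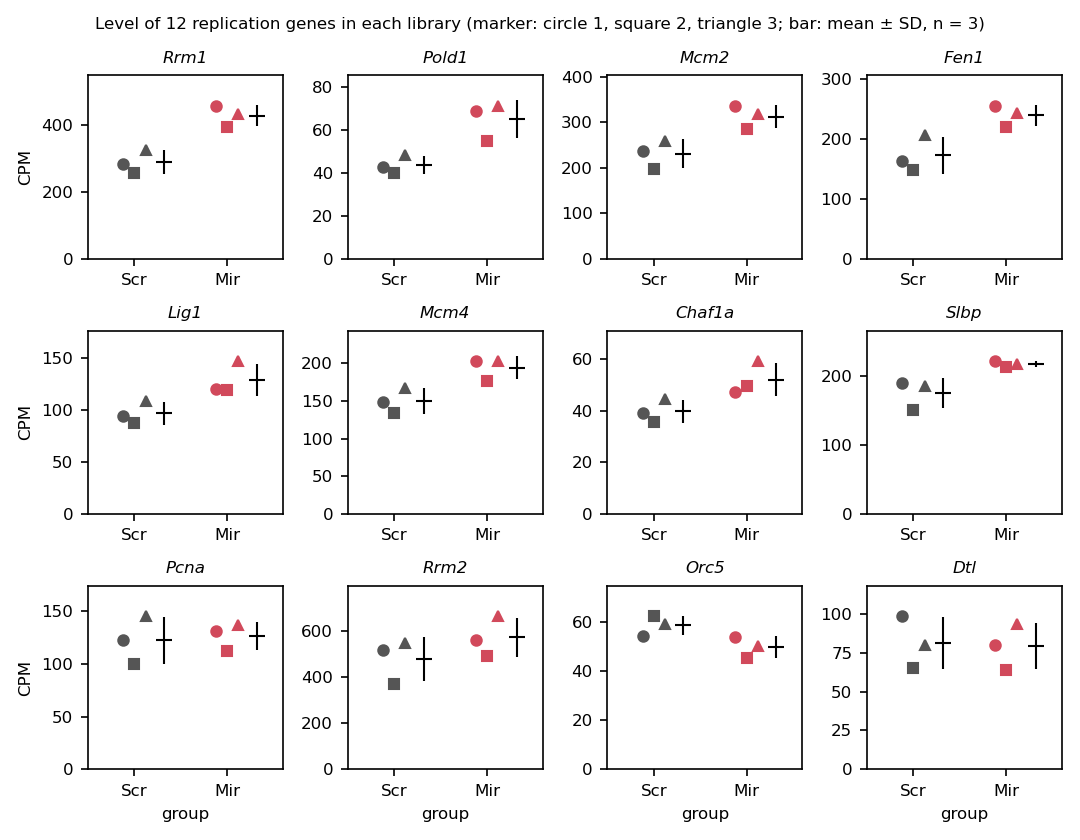
Levels of 12 replication genes (y axis, CPM from 0) are drawn for the 3 Scr and 3 Mir libraries, with circles, squares and triangles for replicates 1, 2 and 3 and a bar for the mean ± SD (n = 3). Rrm1, Pold1, Mcm2, Fen1, Lig1, Mcm4, Chaf1a and Slbp separate upward and Orc5 downward, while Pcna, Rrm2 and Dtl overlap between the groups.

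Levels per kb of transcript (CPM divided by the length of the transcript whose coding sequence is longest) spread widely in the controls. In Scr, Rrm2 was the most abundant message at 218 CPM per kb, followed by Rpa3 at 157, Tipin at 107, Mcm7 at 99.6 and Mcm6 at 97.8. Rrm2 was above Rpa3 by more than either SD alone (43.9 and 18.6 CPM per kb) but not by more than both together, and the difference was not tested. Tipin, Mcm7 and Mcm6 did not differ beyond their SDs (16.9 to 21.2). The lowest were Orc1 at 2.48, Pola1 at 4.16 and Pole at 4.17, and the median of the 54 was 33.9 CPM per kb. The subunits of the Mcm2-7 ring, which are present once each in the complex, spanned 33.5 CPM per kb (Mcm3) to 99.6 CPM per kb (Mcm7).

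The classes were compared library by library through the median of their genes on log2 (CPM + 0.5), taken as a difference from the control mean. The helicase class was at 0.03, -0.22 and 0.17 in Scr and 0.30, 0.19 and 0.37 in Mir, and the single-strand binding and Okazaki class at -0.03, -0.15 and 0.18 in Scr and 0.38, 0.29 and 0.41 in Mir, so that in both classes all Mir libraries lay above all Scr libraries. Nucleotide supply was at 0.06, -0.34 and 0.24 in Scr and 0.35, 0.16 and 0.49 in Mir, with Mir replicate 2 below Scr replicate 3. Origin licensing was at 0.10, -0.15 and 0.05 in Scr and 0.10, 0.01 and 0.07 in Mir, with Scr replicate 1 level with the highest Mir library.
Polymerases were at 0.06, -0.15 and 0.13 in Scr and 0.12, 0.00 and 0.37 in Mir, the clamp and its loader at 0.04, -0.20 and 0.09 in Scr and 0.15, -0.03 and 0.18 in Mir, and chromatin assembly and S phase factors at 0.09, -0.30 and 0.17 in Scr and 0.25, 0.00 and 0.25 in Mir. In each of these 3 classes Mir replicate 2 lay below Scr replicates 1 and 3. Whether the classes differ from each other was not tested, since members of a class are not replicates.

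**Figure D3:**
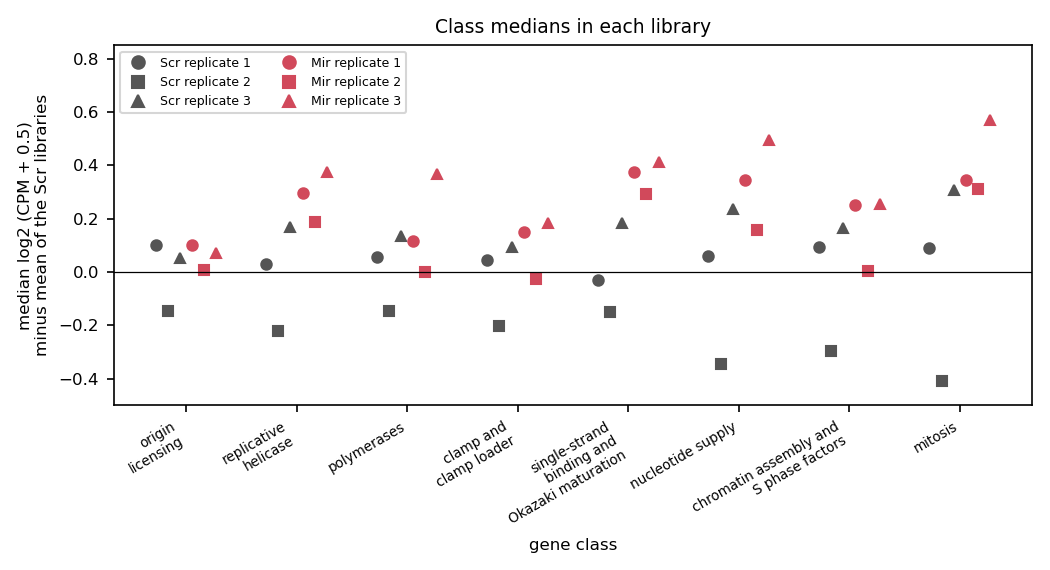
The median of each gene class in each library (y axis, log2 (CPM + 0.5) minus the control mean) is drawn for 7 replication classes and 22 mitosis genes, with grey for Scr, red for Mir and a marker shape for each replicate. Scr replicate 2 is the lowest library in each class, and the groups separate in the helicase class, in the single-strand binding and Okazaki class and in the mitosis genes.

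The number of members at an unadjusted p under 0.05 changed with the libraries used. Without Scr replicate 2, 7 members were higher at an unadjusted p under 0.05 (against 6.73% of all genes), and without Mir replicate 3, 5 members were (against 6.03% of all genes). The count was 16 without Scr replicate 3 (against 5.29% of all genes), 14 without Mir replicate 2 (against 3.7% of all genes) and 20 in a fit with the replicate number as a block (against 6.9% of all genes). Leaving out Mir replicate 1 gave 6 members (against 4.47% of all genes) and leaving out Scr replicate 1 gave 9 higher and 1 lower (against 5.93% of all genes higher). Scr replicate 2 and Mir replicate 3 were the libraries most often lowest and most often highest among the members, so leaving out both lowers the fold changes by construction and is given as a description. Without both, 32 members had higher and 22 lower means, and the median was 0.05. In that fit 4 members (7.41%) were higher and 0 lower at an unadjusted p under 0.05, where 8.55% of all genes were higher. These 4 were the ones that DESeq2 called in the full set, with log2 fold changes now as follows: Rrm1 at 0.48 ± 0.11, Pold1 at 0.44 ± 0.14, Mcm2 at 0.32 ± 0.11 and Fen1 at 0.36 ± 0.14, and edgeR gave them adjusted p-values of 0.103, 0.182, 0.199 and 0.242. In that fit the log2 fold change of Rrm2 was -0.02, that of Tk1 -0.01, of Pcna -0.14, of Pole -0.24 and of Pold2 -0.26. The fold change kept its sign in each of the 7 leave-outs (6 single libraries and that pair) for 30 of the 49 higher members. It also did so for Orc3, Orc4 and Orc5 among the 5 lower ones. The 30 include all 15 at an unadjusted p under 0.05, which were picked by p on these same libraries. For those 15, keeping the sign was nearly fixed in advance. The share of all genes that kept their sign was not computed.

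**Figure D4:**
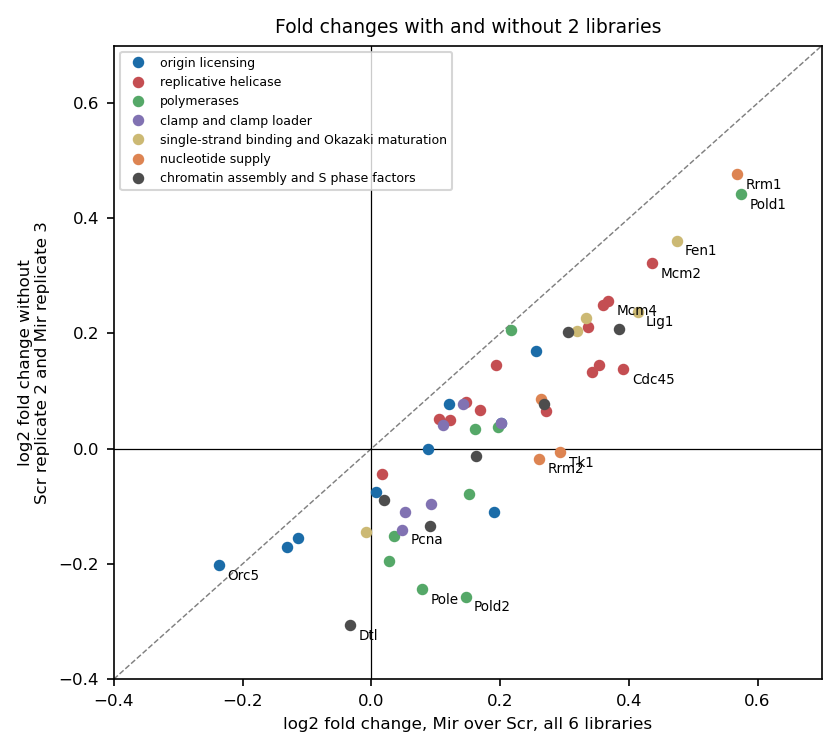
The log2 fold change of each of the 54 genes without Scr replicate 2 and Mir replicate 3 (y axis) is drawn against that with all 6 libraries (x axis), coloured by class, with the dashed line marking equal values. Rrm1, Pold1, Fen1 and Mcm2 lie between 0.32 and 0.48 on the y axis, while Rrm2, Tk1, Pcna, Pole and Pold2 lie below 0.

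Partners within a complex or step were compared as log2 ratios within a library, which do not depend on library size. The 6 pairs were chosen after their values were seen, and 3 against 3 libraries cannot give an exact permutation p below 0.1 (two-sided). Fen1 over Pcna was 0.41, 0.57 and 0.52 in Scr and 0.96, 0.98 and 0.83 in Mir. This ratio was the only one of the 6 without overlap between groups, a difference of 0.43 (exact permutation p = 0.1, adjusted over the 6 pairs 0.4). Its Fen1 counts are uncertain, since genes on the opposite strand overlap 84.2% of the exons of Fen1. The pseudogene Pcna-ps2 shares 19.1% of the 50-base words of Pcna. Rrm1 over Rrm2 differed by 0.30 (exact permutation p = 0.2, adjusted 0.4) and Dbf4 over Cdc7 by 0.27 (exact permutation p = 0.2, adjusted 0.4), each with overlap. Pold1 over Pold2 differed by 0.46 (exact permutation p = 0.3, adjusted 0.45), Cdt1 over Gmnn by -0.12 (exact permutation p = 0.5, adjusted 0.6) and Chaf1a over Chaf1b by 0.10 (exact permutation p = 0.7, adjusted 0.7).

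A second list held 42 other genes of replication, such as fork protection, checkpoint, nucleotide salvage and maintenance of DNA methylation. Higher means were seen for 32 of them and lower ones for 10 (median log2 fold change 0.14), and 8 were higher and 0 lower at an unadjusted p under 0.05 (6.57% and 7.93% of all genes). The 3 with the smallest p were Dna2, a nuclease of long flaps (log2 fold change 0.68 ± 0.17, edgeR adjusted p 0.212), Topbp1, which helps to fire origins and activates the checkpoint kinase ATR (0.36 ± 0.09, 0.214), and Dnmt1, which copies DNA methylation to the new strand (0.38 ± 0.11, 0.232). Above the machinery stand its regulators, here 13 E2F and RB family genes. Of these, 12 were higher on average (against 48.8% of all genes), with a median log2 fold change of 0.13. The lower gene was E2f3, with a log2 fold change of -0.25 ± 0.20 (edgeR adjusted p 0.600). At an unadjusted p under 0.05, 3 of the 13 were higher (against 6.57% of all genes). E2f1, an activator of S phase genes, was at 40.7, 41.8 and 49.2 CPM in the Scr libraries and 72.5, 72.7 and 72.7 CPM in the Mir libraries. All 3 Mir libraries lay within 1 CPM of each other and above all controls, with a log2 fold change of 0.72 ± 0.10 and adjusted p-values of 0.159 by edgeR and 1.21e-05 by DESeq2. The other 2 were the activator E2f2, with a log2 fold change of 0.62 ± 0.19 (edgeR adjusted p 0.250) and the repressor E2f8, with 0.74 ± 0.24 (edgeR adjusted p 0.257).

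Mitosis genes, which act after replication in the same cells, were compared as the nearest other part of the cell cycle. All 22 were higher on average (median log2 fold change 0.37), and 8 were higher at an unadjusted p under 0.05 (against 6.57% of all genes). Among these 8 were the spindle factor Tpx2 (log2 fold change 0.65 ± 0.18, edgeR adjusted p 0.231) and the mitotic kinases Aurkb (0.45 ± 0.15, 0.267) and Plk1 (0.44 ± 0.15, 0.274). Per library their median was 0.09, -0.41 and 0.31 in Scr and 0.35, 0.31 and 0.57 in Mir, with all Mir libraries above all Scr libraries, and Scr replicate 2 was the lowest library for all 22. The median of the replication members minus that of the mitosis genes was -0.04, 0.19 and -0.14 in Scr and -0.10, -0.24 and -0.28 in Mir, with Mir replicate 1 between the controls. Of the radial glia markers, 10 of 11 were also higher (median log2 fold change 0.19), and Scr replicate 2 was lowest for 9. Intermediate progenitor markers were higher in 8 of 8 (median 0.50), and cortical neuron markers lower in 9 of 12 (median -0.31). The part of these cell types in the replication result was not tested.

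Of the promoter windows read above, the E2F words were found in 5 of 10 helicase genes with a promoter, 4 of 8 licensing genes, 4 of 7 polymerase genes, 3 of 6 chromatin and S phase genes, 1 of 5 clamp genes, 1 of 5 single-strand binding and Okazaki genes and 0 of 4 nucleotide supply genes. The windows of Mcm2, Fen1, Pcna and Rrm1 held none of these words. Members with a word had a median log2 fold change of 0.18 (18 genes, 5 at an unadjusted p under 0.05) and members with a promoter but no word had 0.20 (27 genes, 9 at an unadjusted p under 0.05). The cell cycle word TTTGAA, known from mitotic promoters, was in 14.8% of the members' windows and 68.4% of those of the mitosis genes. It was in 17.9% of all promoters and 12.2% of the windows of the genes tested. By class, 6 of 12 helicase windows, 1 of 8 polymerase windows and 1 of 8 single-strand binding and Okazaki windows held TTTGAA, and the other classes held none. The word CCAAT was in 51.9% of the members' windows, 84.2% of those of the mitosis genes, 37.4% of all promoters and 37.7% of the windows of the genes tested. The E2F words were in 1 of 19 mitosis windows (5.26%), 10 of 43 windows of the other replication genes (23.3%) and 6 of 14 of the E2F and RB genes (42.9%). A match is a description of the letters and not of a bound factor.

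**Figure D5:**
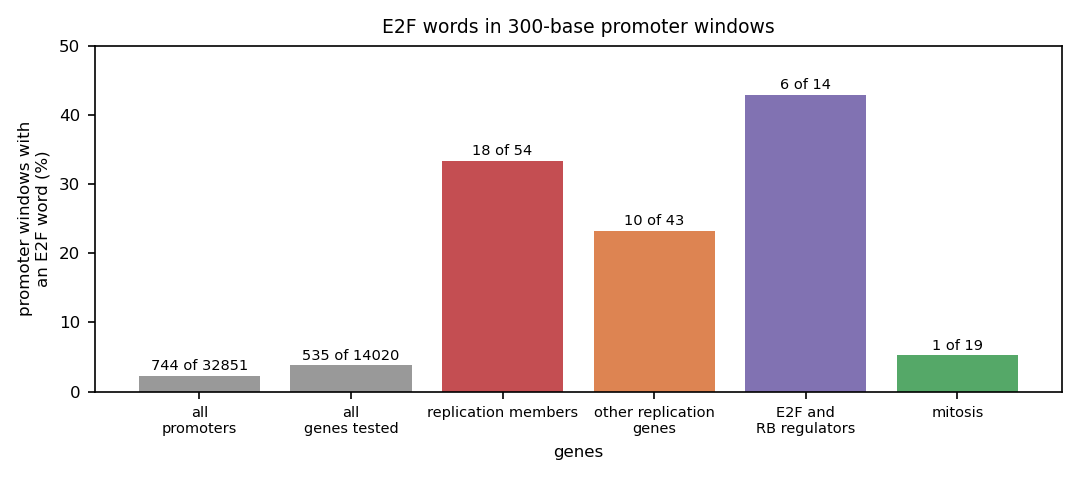
The share of promoter windows that hold an E2F word (y axis, percent, bars from 0, with counts above) is drawn for all promoters, all genes tested and 4 gene lists. The replication members are at 33.3%, against 2.26% of all promoters and 5.26% of the mitosis genes.

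Matches to the miR-3607-5p seed were searched in 3′ UTRs, using for each gene its transcript of longest coding sequence. The words were TCACATG, which pairs with the whole seed, the form shifted by a base, CACATGA, and their union of 8 bases, TCACATGA. They were found in 5 of 54 members (9.26%) and in 2230 of 12895 genes tested that have such a UTR (17.3%), and the 8-base match in 0 members and 344 of those genes. The median UTR was 604.5 nt long in members and 1015 nt in all these genes. The 5 sites are printed as the only members that the hairpin strand shown above could pair with by these words, the match in capitals.
Orc6: ctgggcaccTCACATGgacattaga
Pola1: tttgcttttTCACATGtcagttaaa
Pold3: gacttaaagTCACATGgtggccaat
Tyms: gctcatggcTCACATGgacagggta
Chaf1a: tttcctccaCACATGAagcggctca
These 5 genes had log2 fold changes from 0.01 (Orc6) to 0.38 (Chaf1a), with a median of 0.22, against 0.16 for the members without a site. Among all genes tested that have such a UTR, the median was -0.036 with a match and 0.0018 without. Neither difference was tested. The lower members Orc3, Orc4, Orc5, Rpa3 and Dtl had none of these words.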

How the data were processed

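The authors deposited whole-number read counts per gene, without normalization, for 6 libraries (50 bp single reads, SMART-seq v4, RNA integrity above 9.5, per the labels' protocols). HISAT2 2.1.0, HTSeq 0.11.0, DESeq2 1.18.1 and the build mm10 (GRCm38) are listed per the submitters' processing notes, while their annotation and strand setting were not given in the sources used. The 5 summary lines that name no gene held 76.4 to 78.1% of listed reads and were kept out. Libraries of a group differed beyond sampling noise (chi-square per degree of freedom 7.69 to 25.6).

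Identifiers were matched to GENCODE M21. Counts were tested with edgeR 4.0.16 (R 4.3.3): quasi-likelihood F test, two-sided, group as sole term, TMM factors (0.992 to 1.01), the filterByExpr filter (16897 genes left), Benjamini-Hochberg adjustment over these genes and a threshold of 0.05. The biological coefficient of variation was 23.6%. Fold changes are given ± standard error. DESeq2 1.42.0 (3612 genes without an adjusted p) and limma-voom (limma 3.58.1) were alternatives, beside other scalings, filters, the replicate block and left-out libraries. The tests were first tested on simulated data. The members and lists were chosen with earlier results of these data known. Values per library are given for members at an unadjusted p under 0.05, the member of smallest p in classes without one, and, chosen after their values were seen, Cdc6, Mcm3, Pcna and Rrm2. Of other lists, the 3 genes of smallest p are named. Reads were amplified and carry no molecular identifiers, so they do not count independent molecules.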

Additional observations from a re-analysis of the deposited data

How the results depend on the processing

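Under the other scalings and filters edgeR called 0 members, as with all 6 libraries in the main setting. Over all genes, 580 were called by DESeq2, 0 by limma-voom, 31 with no filter on low counts (15 higher, 16 lower), and 0 to 29 with libraries left out, against 1 with all 6. Of the members, DESeq2 called 4. Leaving out each library, or Scr replicate 2 and Mir replicate 3 together (here the pair), left 4 to 16 members at an unadjusted p under 0.05 and 32 to 51 with a fold change above 0. In these fits 3.7 to 8.55% of all genes were higher at an unadjusted p under 0.05. Medians then ranged from 0.048 to 0.27 for all members, -0.075 to 0.16 for licensing, 0.14 to 0.43 for the helicase, -0.078 to 0.21 for polymerases, -0.028 to 0.19 for the clamp, 0.23 to 0.50 for single-strand binding and Okazaki genes, 0.040 to 0.44 for nucleotide supply and -0.012 to 0.33 for chromatin and S phase factors. Without the pair, these medians were 0.048 for all members, -0.075 for licensing, 0.14 for the helicase, -0.078 for polymerases, -0.028 for the clamp, 0.23 for single-strand binding and Okazaki genes, 0.040 for nucleotide supply and -0.012 for chromatin and S phase factors. The pair holds the libraries most often lowest and highest among the members, so smaller fold changes without it follow by construction, and any further cause was not tested.

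Over the same leave-outs, the fold changes of members that changed sign ranged from -0.048 to 0.29 for Orc1, -0.075 to 0.046 for Orc6, -0.00087 to 0.16 for Cdt1, -0.11 to 0.36 for Gmnn, -0.091 to 0.087 for Gins2, -0.010 to 0.17 for Cdc7, -0.15 to 0.17 for Prim1, -0.078 to 0.27 for Prim2, -0.26 to 0.33 for Pold2, -0.24 to 0.25 for Pole, -0.19 to 0.16 for Pole2, -0.14 to 0.19 for Pcna, -0.097 to 0.17 for Rfc1, -0.11 to 0.23 for Rfc4, -0.14 to 0.10 for Rpa3, -0.017 to 0.38 for Rrm2, -0.0060 to 0.42 for Tk1, -0.31 to 0.13 for Dtl, -0.030 to 0.33 for Hells, -0.089 to 0.11 for Cdca7 and -0.13 to 0.23 for Tipin. The ratio of Cdt1 over Gmnn went to 0.12 without the pair and to 0.031 without Scr replicate 2, alternatives chosen after seeing the data. With upper-quartile scaling Orc6 was at -0.012 and Gins2 at -0.0026, and with no filter Rpa3 was at 0.0058.

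Over all genes tested, same-numbered libraries did not vary together with a shared sign (correlations of deviations 0.22, -0.15 and -0.10). Among the members, however, replicate 2 was the lowest and replicate 3 the highest in both groups. Their log2 medians, as differences from the control mean, were 0.05, -0.22 and 0.17 in Scr and 0.25, 0.07 and 0.30 in Mir. Whether replicate numbers mark pairs was not tested. The replicate block called 0 genes, gave 20 members higher at an unadjusted p under 0.05 (against 6.9% of all genes) and changed no member's call. No test for outlying libraries was run. The number of pools limits the precision, and members had at least 78 counts in each library.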
